A study of Sus scrofa with 22 samples.

Results

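The 10 genes described here were chosen by name for their roles in the making, sensing, uptake and breakdown of prostaglandin E2, a lipid signal that was also an ingredient of LPM, the medium in which the pig tongue organoids of this study were grown. They are the cyclooxygenase genes PTGS1 and PTGS2, the prostaglandin E synthase genes PTGES, PTGES2 and PTGES3, the receptor genes PTGER2 and PTGER4, the uptake transporter gene SLCO2A1, and HPGD and PTGR1, which encode enzymes of prostaglandin breakdown. All 10 were found by symbol among the 27376 genes counted in 16 libraries and again among the 29851 entries counted in the other 6, those of the CQ experiment.

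RNA sequencing covered 22 libraries in 6 groups. Passage 1 organoids grown in LPM from the foliate papillae of 5 pigs (5 libraries) were set beside the native foliate papillae of the same pigs, taste-bud-bearing ridges along each edge of the tongue (5 libraries). Organoids in LPM without FGF10 (3 libraries) were set beside organoids in LPM with FGF10 at 100 ng/ml (3 libraries). Organoids that spent day 0 to day 10 in LPM and then day 10 to day 16 or 17 in a medium called CQ (3 libraries) were set beside organoids kept in LPM (3 libraries). Per the labels' protocols, the LPM of the passage 1 and FGF10 experiments held prostaglandin E2 at 20 nM and forskolin, an activator of adenylyl cyclase, at 1 µM. Its other additions were insulin, Noggin, hu-Wnt3a, R-Spondin-2, Human SHH, EGF and FGF2, the small molecules CHIR99021, A-83-01, SB202190 and Y-27632, nicotinamide and N-Acetyl-Cysteine. The labels of the CQ experiment give the composition of neither CQ nor its LPM, so it is not known whether CQ held prostaglandin E2 or forskolin. The LPM libraries beside CQ carry no culture day, and culture age and medium cannot be told apart. All organoids are labelled as a foliate cell line. Papillae and organoids were extracted with different RNA kits, and the kit and the contrast cannot be told apart. No pig is named for the libraries of the FGF10 and CQ experiments, so their p-values measure the spread between these libraries alone.

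Prostaglandin E2 is made in steps. Phospholipases free arachidonic acid from membranes, cyclooxygenases turn it into prostaglandin H2, and prostaglandin E synthases convert that into prostaglandin E2, which acts on cells through the EP receptors. EP2 and EP4 couple to a stimulatory G protein and raise cyclic AMP. The signal ends when a transporter brings the lipid into cells and a dehydrogenase oxidises it. In epithelia of the gut prostaglandin E2 is known for its part in repair and in the growth of stem and progenitor cells, and it is a common additive of organoid media.

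Libraries held 21.79 to 27.77 M counts in passage 1 organoids, 17.04 to 20.71 M in papillae, 19.64 to 23.45 M without FGF10, 20.77 to 25.23 M with it, 14.67 to 16.0 M in CQ and 19.62 to 26.01 M in the LPM libraries beside CQ. The 3 CQ libraries detected 14014 to 16005 genes, against 17489 to 17920 in the LPM libraries beside them, and their low counts scattered more, with a median variance over mean of 12.7 in CQ and 1.75 in LPM for genes of 10 to 30 counts. The labels name stem cells and mature taste cells as the cell type in every group. In the papillae, markers of gland, skeletal muscle, fibroblast and endothelium were abundant as well. Summed over 7 markers of type II taste and tuft cells, passage 1 organoids held 73.9 to 126 CPM and papillae 188 to 232 CPM. The sums were 162 to 179 CPM without FGF10 and 157 to 165 CPM in the LPM libraries beside it. They were 115 to 136 CPM in CQ and 96.1 to 106 CPM in its LPM libraries. Of these markers SUCNR1 was at 0 in all 5 passage 1 organoid libraries and all 3 libraries without FGF10, and GNAT3 in all 3 CQ libraries. In the LPM libraries of the FGF10 experiment 1 of the 7 markers was at 0 throughout as well, and so was 1 in the LPM libraries beside CQ.

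Levels below are in CPM, a gene's count relative to the TMM-scaled total of its library, each comparison scaled over its own libraries. A gene was called higher or lower where edgeR's quasi-likelihood test, fitted to all genes, gave a Benjamini-Hochberg adjusted p under 0.05. Fold changes are on the log2 scale with their standard errors (SE), intervals are 95% intervals of the same fit, and n is the number of libraries per group. The floor of detection was 3 counts over a group, and in CQ it was raised by the variance over mean given above. Positions are those of the files on Sscrofa11.1, and all 10 matched the RefSeq gene table of that assembly.

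Organoids were compared with the papillae of the same pigs to see how the cultured cells differ from native tissue. Between them the pathway moved in both directions. The inducible cyclooxygenase gene PTGS2, the synthase genes PTGES and PTGES3 and both receptor genes were higher in organoids, whereas the transporter gene SLCO2A1 and the breakdown genes HPGD and PTGR1 were lower. Of the 10 genes, 5 were called higher, 3 lower and 2 neither. In this contrast most of the transcriptome differed: edgeR called 67.5% of 16311 genes, 32.4% as higher and 35.1% as lower in organoids, and 8 of 10 is a share near that background. Of the calls over all genes 48.0% were higher, or 59.6% when scaled by library size alone, which moved the median log2 fold change of all genes to 0.28, against -0.01.

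**Figure D1:**
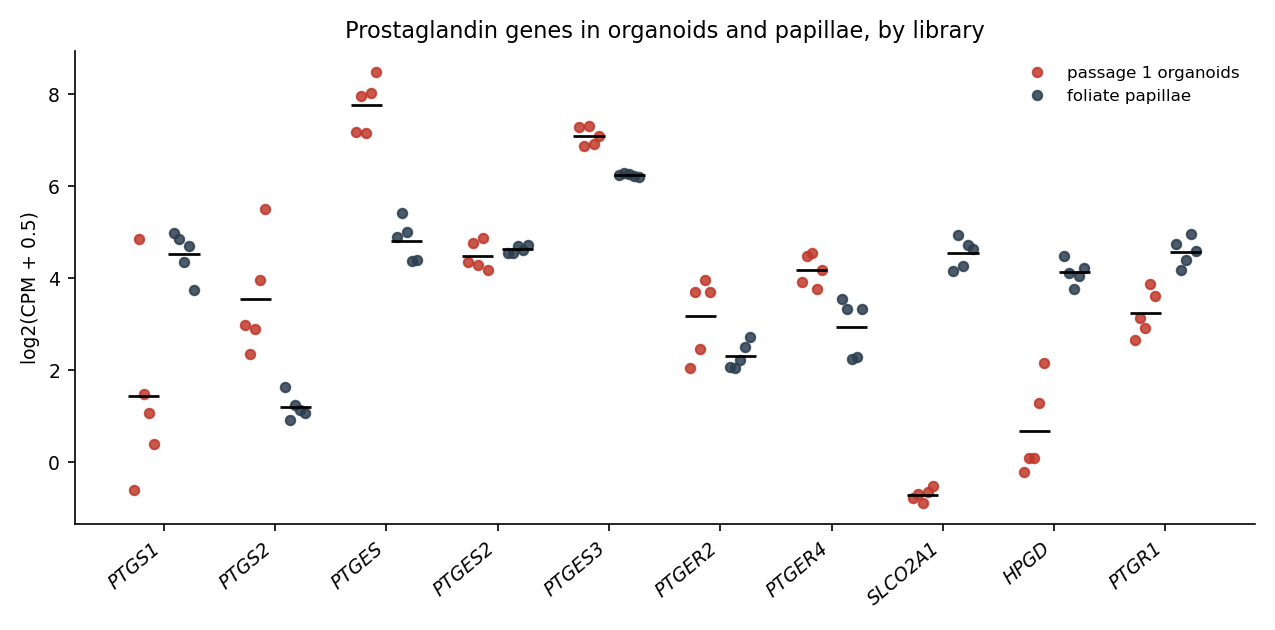
Levels of the 10 prostaglandin genes in each library of passage 1 organoids (red, left) and foliate papillae (blue, right), as log2(CPM + 0.5); bars are group means, n = 5 each. PTGS2 and PTGES lie higher in all 5 organoid libraries than in any papilla library, SLCO2A1 and HPGD lie lower, and 1 organoid library stands among the papillae for PTGS1.

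PTGS2 (chromosome 9, 127850164 to 127858866, minus strand) encodes the cyclooxygenase that growth factors and inflammatory signals induce. It was at 7.41, 4.59, 6.99, 15.2 and 45.1 CPM in the organoids of pigs 1 to 5, against 2.59, 1.4, 1.88, 1.72 and 1.61 CPM in the papillae of pigs 1 to 5. Every organoid library exceeded every papilla library, and the organoids of pig 5 stood far above the other organoids. The log2 fold change was 3.11 (SE 0.61, n = 5 each, edgeR adjusted p = 0.00083), and it was 2.23 without the organoids of pig 5 (adjusted p = 0.000343). A stretch of 108 of its 3613 counted bases also belongs to PLA2G4A on the opposite strand, and strand was ignored in the counting.

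PTGS1 (chromosome 1, 262456106 to 262482159, plus strand) encodes the cyclooxygenase that many cell types express at rest. The organoids of pigs 1 to 5 had 0.163, 28.6, 2.29, 1.6 and 0.821 CPM, and the papillae of pigs 1 to 5 had 31.0, 28.6, 19.9, 25.4 and 12.9 CPM. In 4 pigs the organoids lay far below all papillae, while the organoids of pig 2 were at the level of the papillae, so the groups overlapped. The log2 fold change of -1.82 (SE 1.00, edgeR adjusted p = 0.128) was not called. With the pig as a replicate block PTGS1 was called lower (log2 fold change -3.52, edgeR adjusted p = 0.0117), as it was with limma-voom (-3.73, adjusted p = 0.00207) and without the organoids of pig 2 (-4.26, edgeR adjusted p = 0.000127). Those organoids also had the highest summed suprabasal markers among organoids (1362 CPM, others 169 to 839 CPM) and the highest gland markers (192 CPM, others 13.6 to 89.4 CPM); the part of these cells in the PTGS1 level was not tested.

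Set per kilobase, so that the genes can be compared with each other, PTGS1 made up 27.6 ± 36.4% of cyclooxygenase transcripts in organoids and 94.2 ± 1.85% in papillae (SD, n = 5 each). The organoid share ran from 2.42% to 89.4%, with a median of 12.5%, and the papilla share from 91.6% to 96.5%. In papillae the constitutive gene therefore supplied nearly all cyclooxygenase message in every pig, and in organoids PTGS2 was the larger part in all pigs but pig 2.

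PTGES (chromosome 1, 269911785 to 269924481, minus strand) encodes the inducible microsomal synthase that is often coupled to PTGS2. Its levels were 144, 250, 142, 261 and 357 CPM in the organoids of pigs 1 to 5, and 29.4, 42.5, 31.8, 20.2 and 20.7 CPM in the papillae of pigs 1 to 5. The groups were far apart, with a log2 fold change of 3.0 (SE 0.31, edgeR adjusted p = 7.83e-06), which is 7.98-fold. PTGES3 (chromosome 5, 22000335 to 22022830, minus strand), a cytosolic synthase that is also the HSP90 co-chaperone p23, had 118 to 158 CPM in organoids and 73.3 to 77.8 CPM in papillae and rose 1.82-fold (log2 0.86, SE 0.11, edgeR adjusted p = 3.55e-05). PTGES2 (chromosome 1, 268585725 to 268591356, minus strand), the second membrane-associated synthase, had 17.7 to 28.9 CPM in organoids and 23 to 25.9 CPM in papillae, and did not pass the test (log2 fold change -0.11, SE 0.15, edgeR adjusted p = 0.527); scaled by library size alone its log2 fold change was 0.19. Per kilobase PTGES supplied 78.6 ± 7.87% of the message of these synthases in organoids and 42.8 ± 7.54% in papillae (SD, n = 5 each).

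Both EP receptor genes among the members were higher in organoids. PTGER4 (chromosome 16, 25670832 to 25686556, plus strand), which encodes EP4, had 14.7, 21.8, 22.8, 13.2 and 17.6 CPM in the organoids of pigs 1 to 5, against 11.2, 9.57, 4.26, 4.39 and 9.52 CPM in the papillae of pigs 1 to 5. The groups did not overlap, although the lowest organoid library lay only a little above the highest papilla library, and the log2 fold change was 1.21 (SE 0.30, n = 5 each, edgeR adjusted p = 0.00392). PTGER2 (chromosome 1, 181993961 to 182009959, plus strand), which encodes EP2, had 3.62, 12.5, 5.01, 15.2 and 12.6 CPM in the organoids of pigs 1 to 5, and 3.71, 3.66, 4.21, 5.21 and 6.17 CPM in the papillae of pigs 1 to 5.

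For PTGER2 the organoids of pigs 2, 4 and 5 were well above all papillae, while those of pigs 1 and 3 lay among them. Organoids were higher than papillae in 4 of 5 pigs (log2 fold change 1.09, SE 0.38, edgeR adjusted p = 0.0249). The call was lost without the organoids of pig 2 (0.0522), pig 4 (0.0563) or pig 5 (0.053), without the papillae of pig 1 (0.0545), pig 2 (0.0525) or pig 3 (0.0509), and with limma-voom (0.0824). A stretch of 125 of its 6048 counted bases is shared with PTGDR on the same strand.

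The remaining EP receptor genes went the other way. PTGER1, the gene of EP1, fell to 0.713 ± 0.107 CPM in organoids, against 5.57 ± 1.17 CPM in papillae (SD, n = 5 each; log2 fold change -2.95, SE 0.24, edgeR adjusted p = 1.65e-06). PTGER3, the gene of EP3, had 3 counts over the 5 organoid libraries and 177 over the 5 papilla libraries. It passed the filter on low counts through the papilla libraries, in which it was high, and it enters the count of receptor genes below. Per kilobase PTGER4 made up 68.8 ± 13.2% of EP receptor message in organoids and 36.7 ± 8.65% in papillae, and PTGER1 made up 3.89 ± 0.823% in organoids and 38.7 ± 5.79% in papillae (SD, n = 5 each). Of 9 prostanoid receptor genes, set out together after their values were seen, PTGER2 and PTGER4 were the 2 called higher in organoids, 6 were called lower (PTGER1, PTGER3, PTGFR, PTGDR2, PTGIR and TBXA2R), and PTGDR was not called. Over all genes 67.5% were called, 32.4% as higher and 35.1% as lower.

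**Figure D2:**
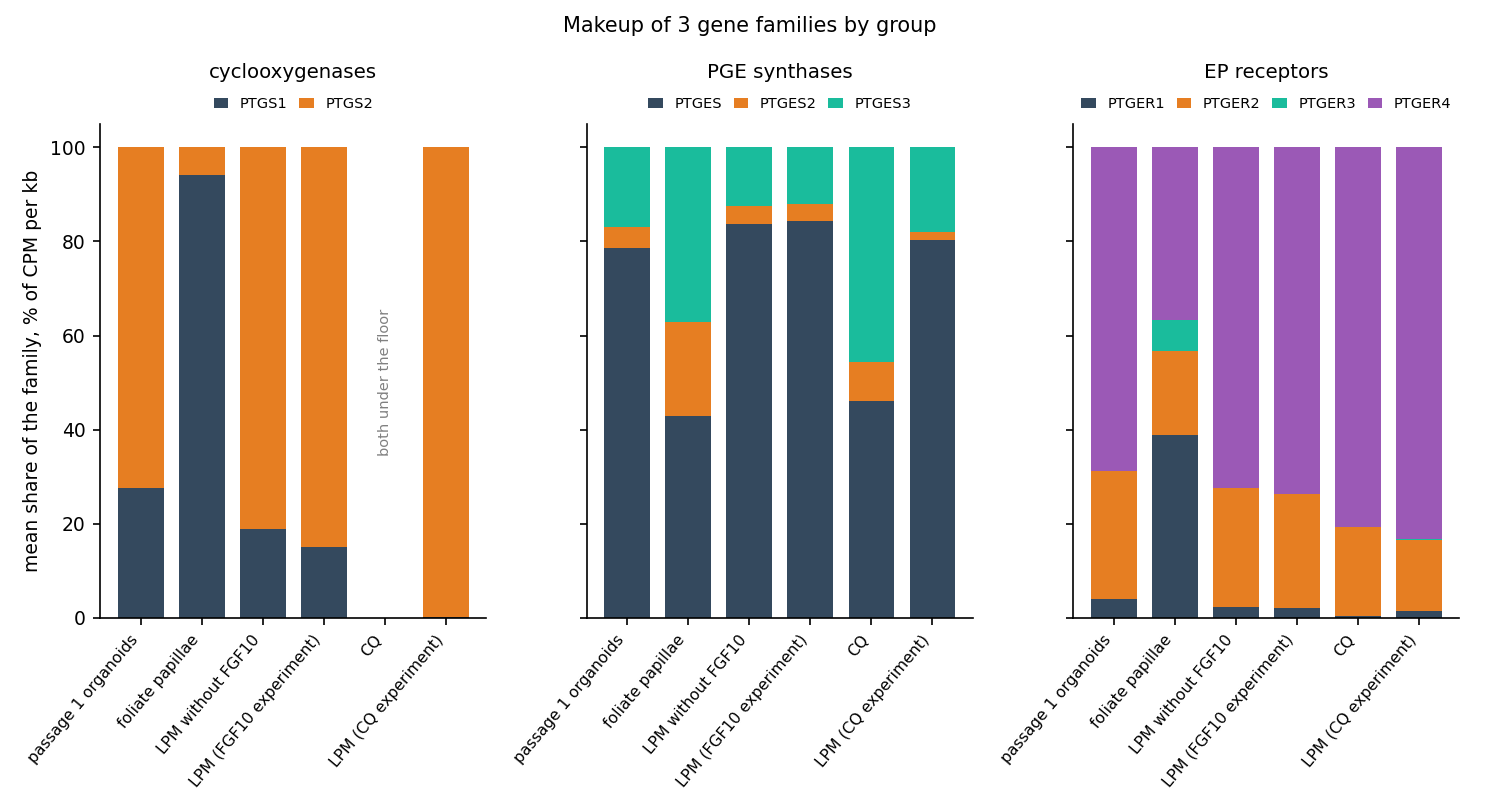
Mean share of each gene in the message of its family, in percent of CPM per kilobase, for cyclooxygenases, prostaglandin E synthases and EP receptors in the 6 groups. PTGS1 is the larger cyclooxygenase part in papillae alone, PTGES makes up 78.6 to 84.3% of the synthases in the 4 groups kept in LPM with or without FGF10, and PTGER4 is the largest EP receptor part in all organoid groups; no cyclooxygenase share is drawn for CQ, where both genes were under the floor.

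The transporter and the breakdown enzymes were lower in organoids. SLCO2A1 (chromosome 13, 75108540 to 75189660, minus strand), which encodes the prostaglandin uptake transporter, had 2, 3, 1, 4 and 6 counts in the organoids of pigs 1 to 5, against 280, 603, 369, 411 and 362 counts in the papillae of pigs 1 to 5. In CPM that is 0.044 to 0.197 in organoids and 17.3 to 30.2 in papillae. Its pooled level was 192 times lower in organoids (exact 95% interval 118 to 337, counting error only; edgeR log2 fold change -7.53, SE 0.33, adjusted p = 2.32e-08).

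HPGD (chromosome 14, 15718261 to 15773534, plus strand) encodes 15-hydroxyprostaglandin dehydrogenase, the enzyme that starts prostaglandin breakdown. It was at 0.366, 0.574, 0.572, 1.94 and 3.94 CPM in the organoids of pigs 1 to 5, and at 22, 16.8, 13.2, 16.1 and 18.3 CPM in the papillae of pigs 1 to 5. No organoid library came near the papillae, though the organoids of pigs 4 and 5, which were also the highest in PTGS2, were above the other organoids. The log2 fold change was -3.52 (SE 0.59, n = 5 each, edgeR adjusted p = 0.00027), and -4.27 without the organoids of pig 5 (adjusted p = 3.58e-05). All 10 genes passed the filter on low counts here, SLCO2A1, HPGD and PTGS1 through the papilla libraries, in which they were high.

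PTGR1 (chromosome 1, 252373272 to 252395948, minus strand) encodes prostaglandin reductase 1, which reduces the product of HPGD and also inactivates leukotriene B4. It had 5.78 to 14.3 CPM in organoids (median 8.28) and 17.8 to 30.7 CPM in papillae (median 23.5), with no overlap (log2 fold change -1.33, SE 0.26, edgeR adjusted p = 0.00077). Of its 1894 counted bases, 548 are shared with LOC110256066 on the opposite strand, a gene at 2.11 ± 0.948 CPM in organoids and 2.86 ± 0.976 CPM in papillae (SD, n = 5 each) that was not called (edgeR adjusted p = 0.304).

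Tissue markers moved with these differences. All 7 fibroblast markers were lower in organoids (summed level 0.82 to 3.32 CPM in organoids, 1934 to 7197 CPM in papillae), as were 6 of 7 endothelial markers (21 to 114 CPM in organoids, 363 to 543 CPM in papillae) and all 6 of pericytes and smooth muscle (33.2 to 69.1 CPM in organoids, 1201 to 1702 CPM in papillae). KDR, the endothelial marker that was not called, made up most of the organoid sum, while CDH5 and EMCN had 1 count each over the 5 organoid libraries. Most fibroblast markers, CDH5 and EMCN passed the filter on low counts through the papilla libraries, in which they were high. Of 6 mast cell markers with a row, CPA3, HDC, MS4A2 and FCER1A were at 0 in organoids, and KIT was higher in them. The part of these cells in the levels of SLCO2A1, PTGS1 and HPGD in papillae was not tested, and in bulk libraries fewer cells of a type and less RNA per cell cannot be told apart. Epithelial lists moved in both directions. All 5 general epithelial markers were higher in organoids (4379 to 8667 CPM in organoids, 984 to 1810 CPM in papillae), whereas all 6 suprabasal markers (169 to 1362 CPM in organoids, 20317 to 43811 CPM in papillae) and all 5 gland markers (13.6 to 192 CPM in organoids, 37813 to 182029 CPM in papillae) were lower. Of 5 basal markers 2 were higher and 3 lower in organoids, with sums of 2803 to 4839 CPM in organoids and 9083 to 12065 CPM in papillae. Beside these counts of markers, edgeR called 67.5% of all genes, 32.4% as higher and 35.1% as lower.

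More genes of the wider eicosanoid list were called lower than higher in organoids. Of 37 further eicosanoid genes with a row, 33 were tested, and 9 were higher and 20 lower in organoids. Over all genes edgeR called 67.5%, 32.4% as higher and 35.1% as lower. The median log2 fold change was -1.90 in the list and -0.01 over all genes tested. PLA2G4F, PTGER3 and ALOX12B are among the listed genes that passed the filter on low counts through the papilla libraries. Such genes enter both the counts and the median. Among the listed genes called higher in organoids, ABCC4 had the smallest p. This exporter gene of prostaglandins and of cyclic AMP was at 117 ± 19.7 CPM in organoids and 14.4 ± 1.31 CPM in papillae (SD, n = 5 each, log2 fold change 3.03, SE 0.14, edgeR adjusted p = 3.19e-08). ALOX15, a 15-lipoxygenase, was at 42.6 ± 40.2 CPM in organoids and 1.21 ± 0.746 CPM in papillae (log2 fold change 5.11; 4.42 without the organoids of pig 1), and LTA4H and GPX4 rose 2.15-fold and 1.70-fold.

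Genes of other prostanoids were among those lower in organoids. PTGDS, the prostaglandin D synthase, was at 4.70 ± 1.62 CPM in organoids and 169 ± 28.5 CPM in papillae (log2 fold change -5.17, SE 0.26, edgeR adjusted p = 5.43e-08). CBR1, a carbonyl reductase that can turn prostaglandin E2 into F2-alpha, was at 1.33 ± 1.04 CPM in organoids and 131 ± 44.3 CPM in papillae (log2 fold change -6.63; -7.22 without the organoids of pig 2). The phospholipase gene PLA2G4F fell 87.4-fold. Of 5 lipoxygenase genes, grouped after values were seen, ALOX15 was the 1 called higher and the other 4 were called lower. Among those 4, ALOX12B was at 0 in organoids and passed the filter on low counts through the papilla libraries. Over all genes 67.5% were called, 32.4% as higher and 35.1% as lower.

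Among 31 genes of EP2 and EP4 signalling through cyclic AMP, 6 were higher and 16 lower in organoids, with a median of -0.48; 22 called of 31 is a share near the 67.5% called over all genes. PDE4B, a cyclic AMP phosphodiesterase, was at 75.4 ± 21.2 CPM in organoids and 9.41 ± 1.56 CPM in papillae (SD, n = 5 each; log2 fold change 3.0, SE 0.21, edgeR adjusted p = 4.54e-07). The transcription factor gene ATF1 and the protein kinase A subunit genes PRKAR1A and PRKACA rose 2.71-fold, 2.12-fold and 1.61-fold. PDE4A fell 23.2-fold, the cyclase genes ADCY4 and ADCY6 fell 163-fold and 4.82-fold, and RAPGEF3, a cyclic AMP sensor, fell 41.0-fold. ADCY4 passed the filter on low counts through the papilla libraries, in which it was high. Of 9 cyclic AMP phosphodiesterase genes, grouped after values were seen, PDE4B was the 1 called higher, and 6 were called lower. Scaled by library size alone, 10 of the 31 genes were lower in place of 16.

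**Figure D3:**
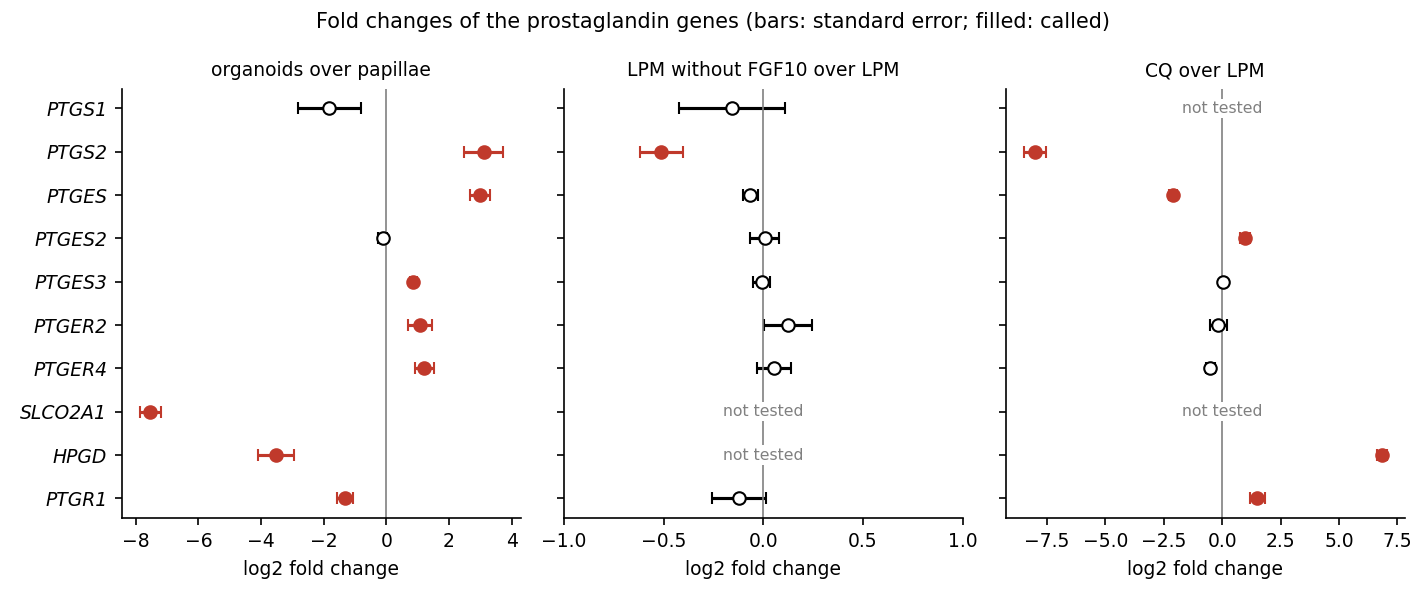
Log2 fold changes of the 10 genes in the 3 comparisons, with standard errors; filled red points were called by edgeR at an adjusted p under 0.05, and the horizontal scale differs between panels. PTGS2 is called in all 3 comparisons, higher in organoids than in papillae and lower without FGF10 and in CQ; HPGD is called lower in organoids than in papillae and higher in CQ than in LPM.

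Removal of FGF10 from LPM was tested next. PTGS2 was the 1 prostaglandin gene called, lower without FGF10. None of the 10 was called higher by edgeR, limma-voom or DESeq2, with 0 higher at an unadjusted p under 0.05. Without FGF10 it was at 11.9, 15.4 and 12.6 CPM, against 21.6, 20.1 and 15.4 CPM in LPM. The highest library without FGF10 and the lowest LPM library were level, so the groups touched. The log2 fold change was -0.51 (SE 0.11, n = 3 each, edgeR adjusted p = 0.00951). The call was lost without library 1 lacking FGF10 (0.121), without LPM library 1 (0.0692) and without LPM library 2 (0.0829).

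Over all genes edgeR called 1.78% of 14262 in this experiment, 0.582% as higher and 1.2% as lower without FGF10. Of the 10 genes, 8 were tested, and the other 7 of these did not pass. Their log2 fold changes lay between -0.15 for PTGS1 and 0.12 for PTGER2, with adjusted p from 0.533 to 0.99 (edgeR). Beside the lower PTGS2 level, suprabasal markers summed to 224 to 299 CPM without FGF10 and 390 to 464 CPM in LPM, with 1 of 4 tested genes lower, and their part in the result was not tested. PTGES was at 262 to 280 CPM without FGF10 and 276 to 291 CPM in LPM, and the interval of its log2 fold change ran from -0.14 to 0.01. PTGER4 was at 15.6 to 18.6 CPM without FGF10 and 14.8 to 17.3 CPM in LPM (interval -0.13 to 0.23).

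HPGD and SLCO2A1 were below the filter in both arms. HPGD had 11, 2 and 6 counts without FGF10 and 7, 10 and 10 in LPM. SLCO2A1 had 2, 10 and 1 counts without FGF10 and 2, 5 and 7 in LPM. At this depth a difference within the counting intervals could not be seen: the pooled ratio of LPM over its counterpart without FGF10 had an exact 95% interval of 0.699 to 2.48 for HPGD and 0.431 to 2.28 for SLCO2A1 (counting error only).

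Of the wider eicosanoid list 23 genes were tested without FGF10. In this experiment edgeR called 1.78% of all genes, 0.582% as higher and 1.2% as lower. ANXA1, which encodes the phospholipase-binding protein annexin A1, was at 739 ± 20.3 CPM without FGF10 and 880 ± 35.4 CPM in LPM (SD, n = 3 each; log2 fold change -0.25, SE 0.04, edgeR adjusted p = 0.000262). EPHX2, an epoxide hydrolase of arachidonic acid epoxides, was at 45.1 ± 2.38 CPM without FGF10 and 52.7 ± 0.227 CPM in LPM (log2 fold change -0.23, edgeR adjusted p = 0.0148), a call lost without library 2 lacking FGF10 (0.0812) or LPM library 2 (0.0883). No other gene of that list was called, while 2 were higher and 5 lower at an unadjusted p under 0.05, ANXA1 and EPHX2 among the 5. Of 28 genes of EP signalling tested, 0 were called by edgeR, limma-voom or DESeq2, while 4 were higher and 1 lower at an unadjusted p under 0.05. Without the filter on low counts 1 was called higher and 1 lower. With the filter, 0 called of 28 is near the 1.78% called over all genes. The share of all genes at that unadjusted threshold was not taken, so the unadjusted counts of both lists have no background beside them.

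The CQ experiment asked what a change of medium after day 10 did to gene expression. PTGS2 fell to the floor of detection in CQ and PTGES fell 4.28-fold, whereas HPGD rose 113-fold and PTGR1 and PTGES2 rose 2.84-fold and 1.96-fold. Of the 10 genes, 3 were called higher, 2 lower and 3 neither, and 2 were not tested. Over 13827 genes edgeR called 47.9%, of them 23.1% of all genes as higher and 24.8% as lower in CQ. A count of 5 called of 8 is near that share, and by size of the fold change HPGD ranked 220 and PTGS2 ranked 88 among all genes tested.

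**Figure D4:**
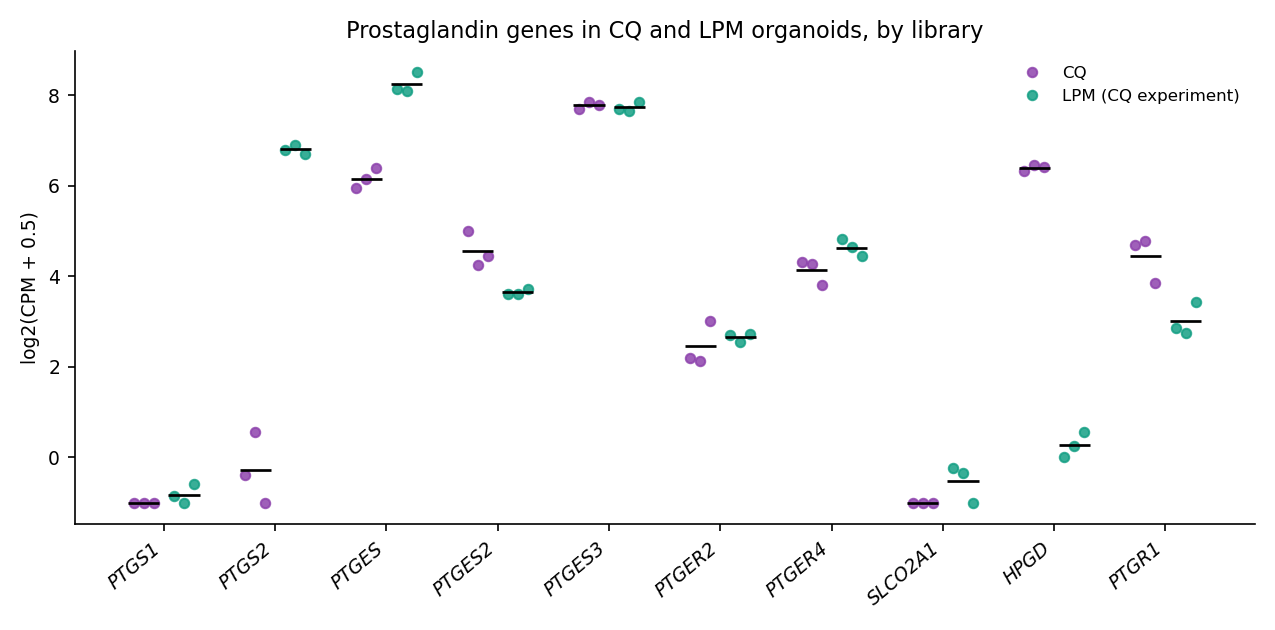
Levels of the 10 prostaglandin genes in each CQ library (purple, left) and each LPM library of the same experiment (green, right), as log2(CPM + 0.5); bars are group means, n = 3 each. PTGS2 lies lower and HPGD higher in all CQ libraries, PTGES is lower in all CQ libraries, and PTGS1 and SLCO2A1 are at or near 0 in both groups.

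PTGS2 had 4, 16 and 0 counts in the CQ libraries, against 2160, 2440 and 2562 in the LPM libraries. In CPM these were 0.269, 0.977 and 0 in CQ and 110, 120 and 104 in LPM, so the groups were far apart. The floor in CQ was 38.2 counts over the group, and against it PTGS2 was at least 137-fold lower in CQ. The fit gave a log2 fold change of -8.01 (SE 0.46, n = 3 each, edgeR adjusted p = 2.63e-06), -9.01 with limma-voom and -9.69 without CQ library 2. PTGS2 passed the filter on low counts through the LPM libraries, in which it was high. PLA2G4A, its neighbour that shares 108 bases, was lower as well, at 1.67 ± 1.45 CPM in CQ and 41.4 ± 3.99 CPM in LPM (SD, n = 3 each; log2 fold change -4.62, SE 0.45, edgeR adjusted p = 5.52e-05; -5.64 without CQ library 3).

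PTGS1 had 0 counts in each CQ library and 1, 0 and 4 counts in the LPM libraries, all below the floor set for CQ, so no difference was detectable. Cyclooxygenase message in the LPM libraries of this experiment was thus almost entirely PTGS2, with 99.9 ± 0.109% per kilobase (SD, n = 3), and in CQ neither gene exceeded the floor.

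PTGES was at 60.9, 70.4 and 83.0 CPM in CQ and at 282, 273 and 363 CPM in LPM. The groups were separate (log2 fold change -2.10, SE 0.16, n = 3 each, edgeR adjusted p = 1.1e-05). PTGES2 was at 31.5, 18.6 and 21.2 CPM in CQ and at 11.8, 11.8 and 12.8 CPM in LPM, also without overlap (log2 fold change 0.97, SE 0.22, edgeR adjusted p = 0.00647). PTGES3, at 207 to 230 CPM in CQ and 199 to 231 CPM in LPM, did not pass (log2 fold change 0.04, interval -0.19 to 0.27, edgeR adjusted p = 0.751), and its log2 fold change was -0.030 without the filter on low counts. Per kilobase PTGES made up 46.1 ± 4.16% of the message of these synthases in CQ and 80.3 ± 1.28% in LPM, and PTGES3 made up 45.6 ± 2.68% in CQ and 18 ± 1.13% in LPM (SD, n = 3 each).

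HPGD had 80.2, 87.9 and 84.4 CPM in CQ, against 0.511, 0.686 and 0.973 CPM in LPM. The CQ libraries were close to each other and far above LPM, with a log2 fold change of 6.82 (SE 0.21, n = 3 each, edgeR adjusted p = 1.34e-07). HPGD passed the filter on low counts through the CQ libraries, in which it was high. The pooled ratio of 3968 counts in CQ to 48 in LPM was 114 (exact 95% interval 85.4 to 154, counting error only). PTGR1 was at 25.4, 26.8 and 14 CPM in CQ and at 6.74, 6.18 and 10.3 CPM in LPM; the lowest CQ library stayed above the highest LPM library (log2 fold change 1.51, SE 0.31, edgeR adjusted p = 0.00346). LOC110256066, which shares 548 bases with PTGR1, was higher too, at 2.68 ± 0.529 CPM in CQ and 0.774 ± 0.183 CPM in LPM (SD, n = 3 each; log2 fold change 1.78, edgeR adjusted p = 0.0415).

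Neither receptor gene passed the test. PTGER4 was at 19.3, 18.8 and 13.5 CPM in CQ and at 27.7, 24.4 and 21.2 CPM in LPM. All CQ libraries lay below all LPM libraries, but the log2 fold change of -0.51 (SE 0.20, interval -0.95 to -0.06, n = 3 each) missed the threshold (edgeR adjusted p = 0.0605); it was called lower without the filter on low counts (0.0488), with limma-voom (0.0481) and without LPM library 3 (0.0487). PTGER2 was at 4.1, 3.91 and 7.58 CPM in CQ and at 5.98, 5.39 and 6.16 CPM in LPM, with the CQ libraries on both sides of LPM (log2 fold change -0.17, interval -1.01 to 0.67, edgeR adjusted p = 0.736). SLCO2A1 had 0 counts in each CQ library and 7, 6 and 0 in LPM, again below the floor set for CQ, and no difference was detectable.

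Of the wider eicosanoid list 22 genes were tested in CQ, with 4 higher and 9 lower and a median log2 fold change of -0.52, beside -0.07 over all genes. Of all genes tested 47.9% were called, 23.1% as higher and 24.8% as lower in CQ. The exporter gene ABCC4 was at 15.3 ± 5.67 CPM in CQ and 345 ± 69.0 CPM in LPM (SD, n = 3 each; log2 fold change -4.50, SE 0.28, edgeR adjusted p = 4.25e-06). ALOX15 was at 0.363 ± 0.109 CPM in CQ and 35.9 ± 1.93 CPM in LPM (log2 fold change -6.61, SE 0.26), and LTA4H fell 2.61-fold. ALOX15 passed the filter on low counts through the LPM libraries, in which it was high. AKR1B1, an aldo-keto reductase with prostaglandin F synthase activity, was at 81.7 ± 4.78 CPM in CQ and 31.4 ± 5.33 CPM in LPM (log2 fold change 1.38, SE 0.15, edgeR adjusted p = 8.82e-05). PTGFRN, a negative regulator of the prostaglandin F receptor, rose 1.73-fold. PLAA, a phospholipase A2 activating protein, was called 1.44-fold higher, a call lost without LPM library 2 (edgeR adjusted p = 0.0812). GPX4 was called 1.37-fold higher (edgeR adjusted p = 0.0293), a call lost without any 1 of the 3 CQ libraries or LPM library 1 or 2 (0.0506 to 0.145) and without the filter on low counts (0.0738).

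Of 25 EP signalling genes tested in CQ, 7 were higher and 9 lower, with a median of 0.12, where 47.9% of all genes were called. PDE4B was at 5.54 ± 0.643 CPM in CQ and 198 ± 35.4 CPM in LPM (SD, n = 3 each; log2 fold change -5.16, SE 0.19, edgeR adjusted p = 2.42e-07). The transcription factor gene ATF1 fell 2.50-fold, the cyclase gene ADCY6 3.10-fold and the kinase subunit gene PRKAR2B 1.70-fold. ADCY7, another cyclase gene, was at 56.5 ± 2.19 CPM in CQ and 10.9 ± 0.317 CPM in LPM (log2 fold change 2.37, SE 0.13, edgeR adjusted p = 2.02e-06). CREM, CREB1 and GRK6 rose 2.62-fold, 1.88-fold and 1.63-fold.

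Marker lists moved here too. Suprabasal markers summed to 25.5 to 31.5 CPM in CQ and 84.4 to 109 CPM in LPM, with 1 of 4 tested genes lower. Basal markers summed to 3360 to 3564 CPM in CQ and 4273 to 4408 CPM in LPM, with 4 of 5 lower. Beside these counts, edgeR called 47.9% of all genes, 24.8% as lower in CQ. Fibroblast markers stayed under 1 CPM in both groups, with DCN, LUM, COL1A1 and COL1A2 at 0 in CQ and 4 of the 7 markers at 0 in LPM as well. The sum for pericytes and smooth muscle was 137 to 198 CPM in CQ and 2.3 to 3.97 CPM in LPM. That sum was almost all TAGLN (172 CPM in CQ, 2.11 CPM in LPM), while ACTA2 had 7 counts in CQ and 18 in LPM. The sum for mast cells was 6.32 to 9.35 CPM in CQ and 250 to 406 CPM in LPM, in LPM almost all of it KIT (3.23 CPM in CQ, 340 CPM in LPM). What part changes in cell makeup had in the levels of PTGS2, HPGD and PTGES was not tested.

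Set across all 22 libraries on a common scale, over the genes in both annotations, the 10 genes could be ordered by level in each group. These levels are per kilobase, and since the CQ experiment was counted against another annotation and the experiments were separate, they are described and not tested. PTGES was the most abundant of the 10 in every group, from 25.1 ± 7.86 CPM per kb in papillae (n = 5) to 289 ± 55.6 CPM per kb in the LPM libraries beside CQ (SD, n = 3), and the ranges of the LPM groups of all 3 experiments overlapped for it. PTGES3 came second by mean throughout, with ranges that overlapped those of PTGES in papillae and in CQ.

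PTGS2 was highest in the LPM libraries beside CQ (34.1 ± 1.80 CPM per kb, n = 3). It was at 5.55 ± 0.979 in the LPM libraries of the FGF10 experiment (n = 3), 4.77 ± 5.06 in passage 1 organoids (n = 5), 3.87 ± 0.574 without FGF10 (n = 3), 0.519 ± 0.13 in papillae (n = 5) and 0.104 ± 0.126 in CQ (n = 3), all CPM per kb with SD. The ranges of neighbours among the middle 3 groups overlapped, and the test between LPM without FGF10 and LPM is the one given above, while the LPM libraries beside CQ lay above every other group, including the other groups labelled LPM. PTGS1 in those same LPM libraries was at 0.0302 ± 0.0358 CPM per kb (SD, n = 3, range 0 to 0.0698), below all libraries of the FGF10 experiment (0.577 to 1.38). Passage 1 organoids ran from 0.0667 to 11.6 CPM per kb for PTGS1. The lowest of them, the organoids of pig 1, lay within the range of the LPM libraries beside CQ. The labels of the CQ experiment name LPM without its composition, so it is not known whether its LPM matched that of the other experiments.

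HPGD was at 9.94 ± 0.427 CPM per kb in CQ (n = 3), 2.31 ± 0.442 in papillae (n = 5), 0.211 ± 0.216 in passage 1 organoids (n = 5), 0.106 ± 0.0371 in the LPM libraries beside CQ (n = 3), 0.0548 ± 0.0139 in those of the FGF10 experiment (n = 3) and 0.0427 ± 0.0318 without FGF10 (n = 3). CQ and papillae stood apart from each other and from all other groups, and passage 1 organoids and the LPM libraries beside CQ did not differ beyond their spread. The log2 ratio of PTGS2 to HPGD per kilobase was -2.48 to -1.72 in papillae. In each of the 14 libraries from cultures in LPM or LPM without FGF10 it lay between 4.03 and 8.76, with HPGD at 2 to 120 counts a library. No ratio is given for CQ, where PTGS2 had 4, 16 and 0 counts, below the floor, beside 1193, 1440 and 1335 counts of HPGD.

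**Figure D5:**
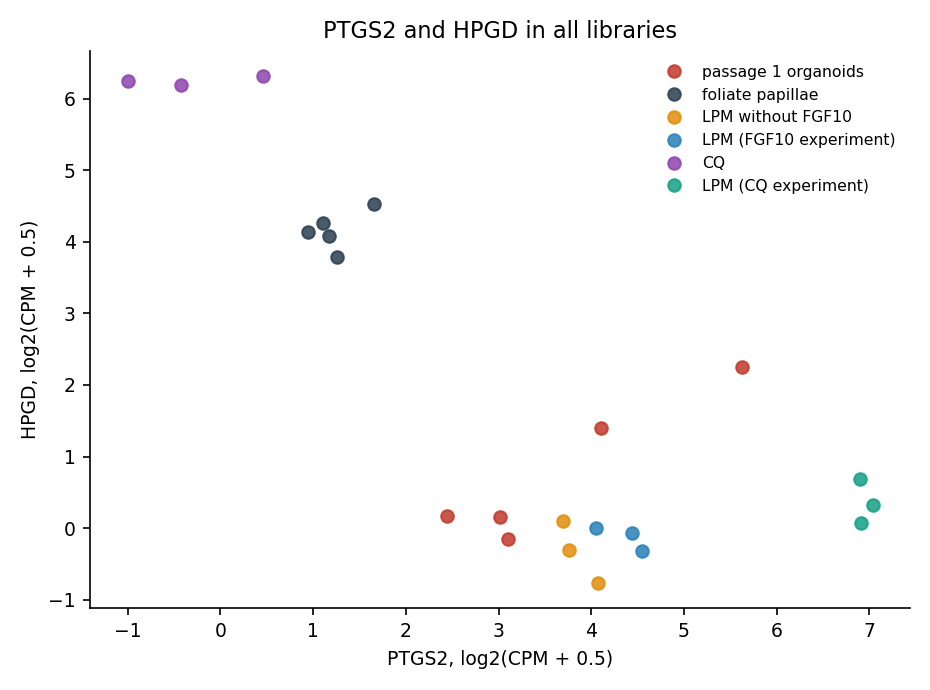
Level of HPGD against level of PTGS2 in each of the 22 libraries, both as log2(CPM + 0.5) on the scale common to all libraries. CQ and papilla libraries lie at the upper left and all libraries kept in LPM, with or without FGF10, at the lower right; the 2 passage 1 organoid libraries highest in PTGS2 are also highest in HPGD among organoids.

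Of the other genes, PTGER4, PTGER2, PTGR1 and PTGES2 lay closer between groups, while SLCO2A1 stood apart in papillae. PTGER4 was at 5.90 ± 0.638 CPM per kb in the LPM libraries beside CQ (n = 3) and 3.39 to 4.28 in the other organoid groups, CQ included, and lowest in papillae at 1.73 ± 0.724 (n = 5). PTGER2 ranged over group means of 0.773 CPM per kb in CQ, 0.774 in papillae and up to 1.76 in passage 1 organoids, with no neighbours in that order apart from each other. PTGR1 was highest in papillae (12.8 ± 2.69, n = 5) and in CQ (10.5 ± 3.37, n = 3), which overlapped, and lowest without FGF10 (2.79 ± 0.231, n = 3). SLCO2A1 was at 12.3 ± 2.79 CPM per kb in papillae (n = 5) with a mean no higher than 0.122 in any organoid group. PTGES2 was between 9.78 and 11.3 CPM per kb in 5 groups and at 6.13 ± 0.466 in the LPM libraries beside CQ (n = 3).

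For each gene, likeness of pattern was measured as the root mean square difference in log2(CPM + 0.5) over the 6 group means, each gene centred, among 14545 genes of at least 1 CPM. Nearest to PTGES were PRRG1 (0.0788), LOC110257649 (0.131) and GPR39 (0.206). Nearest to SLCO2A1 were ZEB1 (0.127), SCG2 (0.128) and OBSL1 (0.138), and nearest to PTGS1 were LAMA4 (0.187), TNFSF12 (0.194) and CSF1 (0.204). SLCO2A1 had group means of 0 to 0.237 CPM in the organoid groups, under the added 0.5. Its likeness therefore rests mainly on its level in papillae. PTGS2 had no near match: CA12 was at 0.665, DDIT4 at 0.741 and KIT at 0.756, and for HPGD the nearest was FABP5 at 0.637. The 1 gene nearest to each of PTGES2, PTGES3, PTGER2 and PTGER4 differed by less than 0.05. Those members also vary less between groups than the members named above, over a range of 0.861, 1.60, 0.973 and 1.80 on the log2 scale.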

How the data were processed

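The 22 deposited tables held raw counts of read pairs per gene, which the authors made with featureCounts (per the file headers, version 2.0.3 in 16 libraries and 2.0.6 in 6, ignoring strand, counting pairs over several genes once for each gene and skipping multimapping pairs). The submitters' processing notes also name FastQC 0.11.9, STAR 2.7.10b, MultiQC 1.14 and DESeq2. An entry without a gene name held 0.326 to 0.477% of counts in the CQ experiment and was left out. Groups came from the labels. Each comparison was fitted on its own groups over all genes with edgeR 4.0.16 in R 4.3.3 (TMM, filterByExpr, quasi-likelihood F test, Benjamini-Hochberg). Standard errors follow from the F statistic. The members, the gene lists and the markers were chosen with earlier results of these data known. From each list up to 4 called genes per direction and comparison were named by smallest p; PTGER3 and the grouping by role were added after values were seen. Floors were 3 counts per group, times the CQ variance over mean for CQ, a factor that holds the spread between the CQ libraries. The other floors and the exact intervals reflect counting error alone, and no molecular identifiers mark PCR copies. Alternatives were library size alone, DESeq2 size factors, no filter, a replicate block, limma-voom (limma 3.58.1), DESeq2 1.42.0 and leaving out each library, with a separate voom variance per group added after seeing the data. The edgeR fit alone was tested on simulated counts, with less spread than the organoid and CQ comparisons had. Organoids and papillae of the same number come from the same pig per the labels. Their deviations correlated at 0.0337 to 0.0901, and those of organoids and papillae of different pigs at -0.149 to 0.0892. The main fit left the pairing out, and the replicate block took it in. In the other experiments a number was shared with no stated link.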

Additional observations from a re-analysis of the deposited data

Results flagged for a closer look

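In 20 sets of 5 libraries (10 genes in passage 1 organoids and in papillae), 2 libraries stood far from the other 4 of their group by Dixon's criterion at the 95% level, and chance alone flags about 1 in 20 sets. PTGS1 was at 28.6 CPM in the organoids of pig 2, while the other organoids had 0.163 to 2.29 CPM. PTGS2 was at 45.1 CPM in the organoids of pig 5, while the other organoids had 4.59 to 15.2 CPM.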

How the results depend on the processing

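The 6 counts of prostaglandin genes called, 5 higher and 3 lower in organoids than in papillae, 0 higher and 1 lower without FGF10, and 3 higher and 2 lower in CQ, differed by no more than 1.5 times from these values under library size alone, DESeq2 size factors, no filter, limma-voom with and without a variance per group, and DESeq2. With the pig as a replicate block the paired fit called 5 higher and 4 lower in organoids, and PTGS1 was the 1 prostaglandin gene whose call it changed in any comparison. Leaving out 1 library gave 4 to 5 higher and 3 to 4 lower in organoids, 0 to 0 higher and 0 to 1 lower without FGF10, and 3 to 3 higher and 2 to 3 lower in CQ. Signs turned in genes that were not called. PTGES2 in organoids was 0.19 and PTGES3 without FGF10 was 0.0096 (log2 fold change) with library size alone, and PTGES3 in CQ was -0.030 with no filter. Leaving out 1 library gave log2 fold changes without FGF10 of -0.52 to 0.18 for PTGS1, -0.036 to 0.067 for PTGES2, -0.042 to 0.033 for PTGES3 and -0.035 to 0.11 for PTGER4, and in CQ of -0.021 to 0.094 for PTGES3. The cause was not tested. Depth limits what can be said of SLCO2A1 in all cultures, of HPGD in the FGF10 experiment and of PTGS1 in the CQ experiment.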
